A study of Mus musculus with 20 samples.

Results

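Tnfsf4, Tnfsf18, Tnfsf10, Tnfsf12 and Tnfsf15 encode ligands of the tumour necrosis factor (TNF) superfamily, and this account describes their RNA in mouse muscle endothelial cells with and without Atf4. The 5 genes were taken from 42374 genes with counts summed over their transcripts. They were selected on their measured levels in these same 20 libraries, so their values are given as a description, with no test, and calls are given only for genes that are not among them. Another 13 ligand genes of the superfamily and 28 receptor genes served for comparison.

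Ligands of this family are mostly trimeric proteins on the cell surface that bind matching receptors on neighbouring cells, and some are also shed. Receptors with a death domain can start apoptosis, and the others signal mainly through TRAF adaptors to the transcription factor NF-kB. The products of Tnfsf4 (OX40 ligand) and Tnfsf18 (GITR ligand) are co-stimulators of T cells through Tnfrsf4 and Tnfrsf18, and both are known on activated antigen-presenting cells and on endothelium. Tnfsf10 encodes TRAIL, an apoptosis-inducing ligand, Tnfsf12 encodes TWEAK, which acts through Fn14, and Tnfsf15 encodes TL1A, a ligand of the receptor Tnfrsf25 that is known from endothelial cells. ATF4 is a transcriptional regulator that cells produce when the integrated stress response is active.

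Endothelial cells were sorted as CD31+ CD45- cells from the soleus, called oxidative muscle here, or from the extensor digitorum longus, called glycolytic muscle. The animals were C57BL/6N and either wild type or with an endothelial cell-specific deletion of Atf4 (Atf4-/-, here ECKO). All mice received 1 mg of tamoxifen per day on 5 days at 8 to 10 weeks of age, followed by a washout of at least 7 days, and Cre-negative littermates served as wild type. The 4 groups of 5 libraries were oxidative wild type, oxidative ECKO, glycolytic wild type and glycolytic ECKO. The labels name neither the promoter that drives Cre nor the number of animals behind a library, so the spread between libraries may be technical.

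Library totals ranged from 8013223 to 21720127 estimated counts. Levels are given as CPM, counts scaled by the TMM-adjusted library size. The deleted gene Atf4 stood at 554 ± 21.02 CPM (SD, n = 5) in oxidative and 262 ± 13.5 CPM in glycolytic wild type, and at 1.5% and 2.82% of those levels in ECKO. All 13 endothelial markers were detected in each group, with a summed level between 10840 and 13080 CPM. The 13 myeloid markers, among them Ptprc (CD45) and Lyz2, summed to between 285 and 372 CPM in oxidative wild type and to 46.7 to 98.7, 32.0 to 36.3 and 20.03 to 22.2 CPM in oxidative ECKO, glycolytic wild type and glycolytic ECKO. None of these markers was at 0 in all libraries of a group. The 8 mural cell markers summed to between 1488 and 1516 CPM in glycolytic ECKO and to at most 987 CPM in any library of the other groups. The wild type libraries carried Y-linked RNA and at most 0.274 CPM of Xist, the RNA that coats the inactive X of females. Glycolytic ECKO libraries and oxidative ECKO libraries 4 and 5 carried Xist with at most 1.55 CPM of Y-linked RNA, and oxidative ECKO libraries 1, 2 and 3 carried both kinds. Sex therefore cannot be told apart from genotype, and results that rest on oxidative ECKO are given below with parts of that group left out where this moves them.

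Tnfsf4 (ENSMUSG00000026700.4) and Tnfsf18 (ENSMUSG00000066755.2) are neighbours on chromosome 1 of GRCm38. Tnfsf4 spans chr1:161395409-161418410 and Tnfsf18 spans chr1:161494655-161505290, both on the plus strand, and 76244 bases with no other protein-coding gene lie between them. Each is represented by 1 transcript in the annotation. Tnfsf10 (ENSMUSG00000039304.11) spans chr3:27317028-27342427 on the plus strand, Tnfsf12 (ENSMUSG00000097328.7) chr11:69686250-69695849 on the minus strand, and Tnfsf15 (ENSMUSG00000050395.8) chr4:63727084-63745113 on the minus strand. The Tnfsf12 span overlaps the readthrough gene Tnfsfm13 on the same strand and Tnfsf13os on the other, so the split of reads between them is uncertain.

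RefSeq promoter windows (GRCm38.p6) run from 250 bases before to 50 after the RefSeq start, which differs from the start of the spans above. Such windows were at hand for 3 of the 5 genes, Tnfsf18, Tnfsf10 and Tnfsf15, while Tnfsf4 and Tnfsf12 had no entry. Those of Tnfsf18, whose RNA in ECKO was 3.68% and 4.17% of wild type in oxidative and glycolytic muscle, and of Tnfsf10, at 123% and 81.1%, are shown in lower case from 5′ to 3′ on the plus strand, at chr1:161494407-161494706 and chr3:27316827-27317126. Capitals mark matches to any of 4 motifs on either strand: TGATGNAA (a C/EBP-ATF composite form), TGACGTCA (CRE), TGANTCA (AP-1) and GGGNNTTCC (a form of the NF-kB site).
Tnfsf18: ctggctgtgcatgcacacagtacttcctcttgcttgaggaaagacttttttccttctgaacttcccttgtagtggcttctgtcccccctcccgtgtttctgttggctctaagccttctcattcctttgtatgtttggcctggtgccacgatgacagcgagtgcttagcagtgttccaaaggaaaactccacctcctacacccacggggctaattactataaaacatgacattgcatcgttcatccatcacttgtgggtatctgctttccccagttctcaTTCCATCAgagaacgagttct
Tnfsf10: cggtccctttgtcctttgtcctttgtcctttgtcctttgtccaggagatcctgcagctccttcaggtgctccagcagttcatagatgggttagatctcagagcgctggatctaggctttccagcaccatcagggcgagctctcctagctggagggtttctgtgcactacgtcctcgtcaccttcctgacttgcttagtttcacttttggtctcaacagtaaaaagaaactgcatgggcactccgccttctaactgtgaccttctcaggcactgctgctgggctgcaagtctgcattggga
Tnfsf18 holds 1 match, to TGATGNAA on the minus strand (printed as TTCCATCA), whose first base lies 29 bases after the RefSeq start. Tnfsf10 and Tnfsf15 hold none. Of all 32851 promoter windows, 3.97% hold TGATGNAA, 1.79% TGACGTCA, 7.81% TGANTCA and 5.82% GGGNNTTCC. A match is a stretch of letters and not a shown binding site.

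Tnfsf4 RNA was present at a low level in every wild type library and was nearly absent from ECKO in both muscles. In oxidative wild type libraries 1 to 5 it stood at 0.896, 0.948, 1.61, 1.07 and 1.10 CPM, and in glycolytic wild type at 0.533, 0.365, 0.848, 0.770 and 0.781 CPM. These values rest on 6 to 23 counts per library. In CPM no oxidative wild type library was as low as the highest glycolytic one, by 0.896 against 0.848 on 11 counts each. In TPM (counts divided by transcript length) the wild type muscles overlapped. The oxidative libraries lay between 0.547 and 1.055 TPM, the glycolytic ones between 0.272 and 0.629 TPM. The means were 1.12 ± 0.283 and 0.659 ± 0.203 CPM (SD, n = 5), a log2 fold change of 0.78 ± 0.38 (SE). In ECKO, oxidative library 3 held 2 counts (0.121 CPM) and the other 9 libraries held 0. Over the group, oxidative ECKO had 2 counts against 76 in wild type, or 2.41% of the wild type level with an exact 95% interval from 0.286% to 9% that covers counting error only. Glycolytic ECKO had 0 counts against 54, with an exact 95% interval from 0% to 11.4% of the wild type level. At a floor of 3 counts per group it would be 11.2-fold lower. In bulk libraries fewer cells that carry a transcript and less of it per cell cannot be told apart. Both ECKO groups are at or under that floor, so no fold between them is given.

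Tnfsf18 RNA was about equal in the 2 muscles of wild type mice and stood at a few percent of that level in ECKO. In oxidative wild type libraries 1 to 5 it stood at 7.41, 10.0, 12.7, 7.79 and 9.33 CPM, and in glycolytic wild type at 10.1, 11.8, 7.09, 10.7 and 9.37 CPM. The 2 wild type groups overlapped throughout, with means of 9.45 ± 2.12 and 9.81 ± 1.75 CPM (SD, n = 5) and a log2 fold change of -0.06 ± 0.22 (SE). The oxidative ECKO libraries held 0.424, 0.236, 0.121, 0.593 and 0.366 CPM and the glycolytic ECKO libraries 0.117, 1.11, 0.256, 0.564 and 0 CPM. Every ECKO library lay below every wild type library. Group means in ECKO were 3.68% of wild type in oxidative muscle (0.348 ± 0.180 CPM) and 4.17% in glycolytic muscle (0.409 ± 0.444 CPM). The log2 fold changes of ECKO over wild type were -4.74 ± 0.33 and -4.51 ± 0.34 (SE), and their difference between the muscles was -0.23 ± 0.58. Between the ECKO groups the values overlapped (log2 fold change -0.29 ± 0.54, on 25 and 22 counts). Its sign was not stable, with -0.683 to 0.31 over 28 alternative settings (0.13 with limma-voom). The difference of the genotype effect between the muscles likewise ran from -0.614 to 0.367.

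RNA of other cell types also differed between the groups. Myeloid marker RNA had a median sum of 344 CPM in oxidative and 32.6 CPM in glycolytic wild type, where Tnfsf4 averaged 1.12 and 0.659 CPM and Tnfsf18 9.45 and 9.81 CPM. In oxidative ECKO the myeloid median was 89.7 CPM and in glycolytic ECKO 21.2 CPM. The 9 dendritic cell markers summed to between 97.4 and 116 CPM in oxidative wild type and to between 60.9 and 75.9 CPM in oxidative ECKO. In glycolytic muscle they summed to between 81.7 and 96.2 CPM in wild type and to between 61.3 and 74.3 CPM in ECKO. In both muscles these sums were lower in ECKO without overlap, as were Tnfsf4 and Tnfsf18. Cd209a was at 0 in all groups but oxidative wild type, and Itgax in both glycolytic groups. The 5 B cell markers summed to at most 0.815 CPM in any library. The part of myeloid, dendritic or mural RNA in the low ECKO levels was not tested, and sex cannot be told apart from genotype.

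Tnfsf10 was the most abundant of the 5 genes per transcript length and was higher in oxidative ECKO and lower in glycolytic ECKO than in wild type. It stood at 61.5, 52.1, 60.2, 55.8 and 63.5 CPM in oxidative wild type libraries 1 to 5 and at 80.8, 77.4, 83.1, 78.1 and 82.4 CPM in glycolytic wild type. Oxidative ECKO libraries held 59.2, 67.7, 68.0, 83.6 and 80.8 CPM, and glycolytic ECKO libraries 66.5, 62.6, 66.9, 64.7 and 65.3 CPM. The wild type groups did not overlap, glycolytic being higher (means 80.4 ± 2.55 against 58.6 ± 4.61 CPM, SD, n = 5; log2 fold change of oxidative over glycolytic -0.45 ± 0.07, SE). In glycolytic muscle every ECKO library lay below every wild type library, with a mean of 65.2 ± 1.72 CPM and a log2 fold change of -0.30 ± 0.07. In oxidative muscle ECKO averaged 71.9 ± 10.1 CPM, a log2 fold change of 0.29 ± 0.07, and its lowest library lay within the wild type range. That value was 0.48 without the 3 ECKO libraries that carried Y-linked RNA and 0.15 without the other 2, so it depends on which libraries are counted. Libraries 4 and 5, with about 1 CPM of Y-linked RNA, held the most Tnfsf10, and library 1, with 64.6 CPM, held the least. The difference of the genotype effect between the muscles was 0.59 ± 0.10 on the log2 scale. Transcript Tnfsf10-201 carried 95.9% to 97.2% of the counts of the gene in the 4 groups and Tnfsf10-202 the rest.

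Tnfsf12 differed little between the groups. Oxidative wild type libraries held 12.8 to 16.6 CPM, glycolytic wild type 14.4 to 21, oxidative ECKO 12.6 to 15.3 and glycolytic ECKO 11.3 to 18.2 CPM. All 4 ranges overlapped. The log2 fold change of ECKO over wild type was -0.03 ± 0.12 (SE) in oxidative and -0.17 ± 0.12 in glycolytic muscle, and that of oxidative over glycolytic muscle was -0.29 ± 0.12 in wild type and -0.15 ± 0.12 in ECKO. With Tnfsfm13 and Tnfsf13 added, the locus summed to 33.8 ± 1.88 CPM in oxidative wild type, 43.7 ± 5.75 in glycolytic wild type, 37.3 ± 3.60 in oxidative ECKO and 39.7 ± 2.75 in glycolytic ECKO (SD, n = 5). These sums did not overlap between the wild type muscles (31.4 to 36.0 CPM in oxidative, 36.9 to 49.7 CPM in glycolytic). They overlapped between the genotypes of each muscle and between the ECKO muscles.

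Tnfsf15 was close to the limit of detection. No library held more than 8 counts (0.485 CPM, oxidative ECKO library 3), and 5 of the 20 libraries held none. It failed the filter on low counts and no fold change is given.

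**Figure D1:**
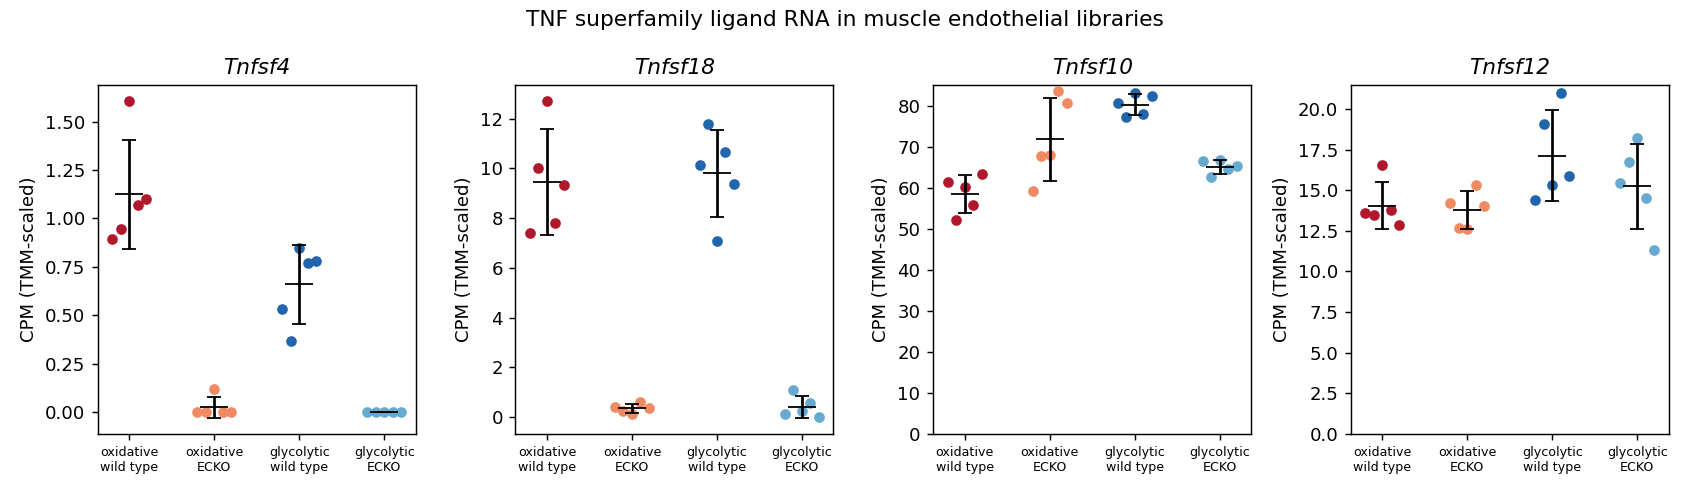
CPM of Tnfsf4, Tnfsf18, Tnfsf10 and Tnfsf12 in the 4 groups: points are libraries in order of replicate number, the black bar is the mean and the whiskers are ± 1 SD (n = 5). Tnfsf4 and Tnfsf18 lie at or near 0 in both ECKO groups, Tnfsf10 averages 58.6, 71.9, 80.4 and 65.2 CPM from left to right, and the ranges of Tnfsf12 overlap.

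Per transcript length the order of the 5 genes can be compared in TPM, which divides counts by transcript length. In oxidative wild type, Tnfsf10 (15.96 TPM) and Tnfsf12 (13.1 TPM) led, followed by Tnfsf18 (5.33 TPM), Tnfsf4 (0.725 TPM) and Tnfsf15 (0.0219 TPM). Glycolytic wild type had the same order, with 24.8, 17.6, 6.44, 0.493 and 0.0599 TPM. The Tnfsf10 and Tnfsf12 libraries overlapped in oxidative wild type (14.7 to 17.6 against 12.01 to 15.5 TPM) and did not in glycolytic wild type. Within a library, Tnfsf18 was 6.39 to 9.20 times as abundant as Tnfsf4 in oxidative and 7.35 to 28.3 times in glycolytic wild type. Of the 13 other ligand genes, Tnf and Tnfsf9 (13.9 and 11.8 TPM) lay above Tnfsf18 in oxidative wild type, and Cd40lg, Cd70 and Tnfsf11 were at 0 in all libraries.

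The fit of all genes gives the background for the calls reported on other genes. Of 13971 genes tested, 32% passed an adjusted p of 0.05 between genotypes in oxidative muscle (14.6% higher and 17.4% lower in ECKO) and 29% in glycolytic muscle (13.9% and 15.1%). Between the muscles 32.4% passed in wild type (16.4% higher and 15.9% lower in oxidative) and 18.4% in ECKO (8.31% and 10.1%). For the interaction, which asks whether the genotype effect differs between the muscles, 22.6% passed (10.1% positive and 12.5% negative). Of the 5 ligand genes 4 passed the count filter, Tnfsf4 only through its wild type libraries. Since the genes were chosen on these contrasts, no call is given for them.

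Among other genes of the chromosome 1 region, Prdx6, a peroxiredoxin with antioxidant activity, was lower in ECKO in both muscles. Prdx6 is the nearest protein-coding gene before Tnfsf4 and lies on the opposite strand, 144189 bases from it. It fell from 462 ± 26.0 to 112 ± 2.41 CPM (SD, n = 5) in oxidative muscle and from 489 ± 18.6 to 140 ± 8.84 CPM in glycolytic muscle. The log2 fold changes were -2.04 ± 0.05 and -1.81 ± 0.05 (SE; edgeR adjusted p = 2e-21 and 9.14e-20), and every ECKO library lay below every wild type library. The annotation holds 15 protein-coding genes within 1 Mb of the interval besides the 2 ligands, and 11 of them could be tested. In oxidative muscle 2 of the 11 passed, both lower (Prdx6 and Suco), and in glycolytic muscle 3, all lower (Prdx6, Rc3h1 and Dnm3). Over all genes tested, 32% passed in oxidative muscle (17.4% lower) and 29% in glycolytic muscle (15.1% lower). Without Prdx6 the log2 fold changes of the other 10 lay between -0.42 and 0.28 in oxidative and between -0.29 and 0.40 in glycolytic muscle. Suco fell by 0.42 ± 0.11 in oxidative muscle (adjusted p = 0.00397), Rc3h1 by 0.18 ± 0.06 (adjusted p = 0.0269) and Dnm3 by 0.29 ± 0.09 (adjusted p = 0.0224) in glycolytic muscle. With an offset for effective transcript length all 3 calls were lost, at -0.39 for Suco, -0.04 for Rc3h1 and -0.27 for Dnm3 (adjusted p = 0.169, 0.821 and 0.125). The Rc3h1 call was also lost without glycolytic ECKO library 1, 2 or 5 or glycolytic wild type library 1 or 3 (adjusted p between 0.0556 and 0.0777). The Dnm3 call was also lost without library 5 of either glycolytic group (adjusted p = 0.0699 and 0.0513). Fasl, the next ligand gene of the family after Tnfsf18, had 1 count in all 20 libraries. Prdx6, Tnfsf4 and Tnfsf18 are consecutive protein-coding genes with ECKO levels at or below 28.6% of wild type. The 2 ligands were chosen on their levels and with their position known, so only Prdx6 in this run was not selected.

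**Figure D2:**
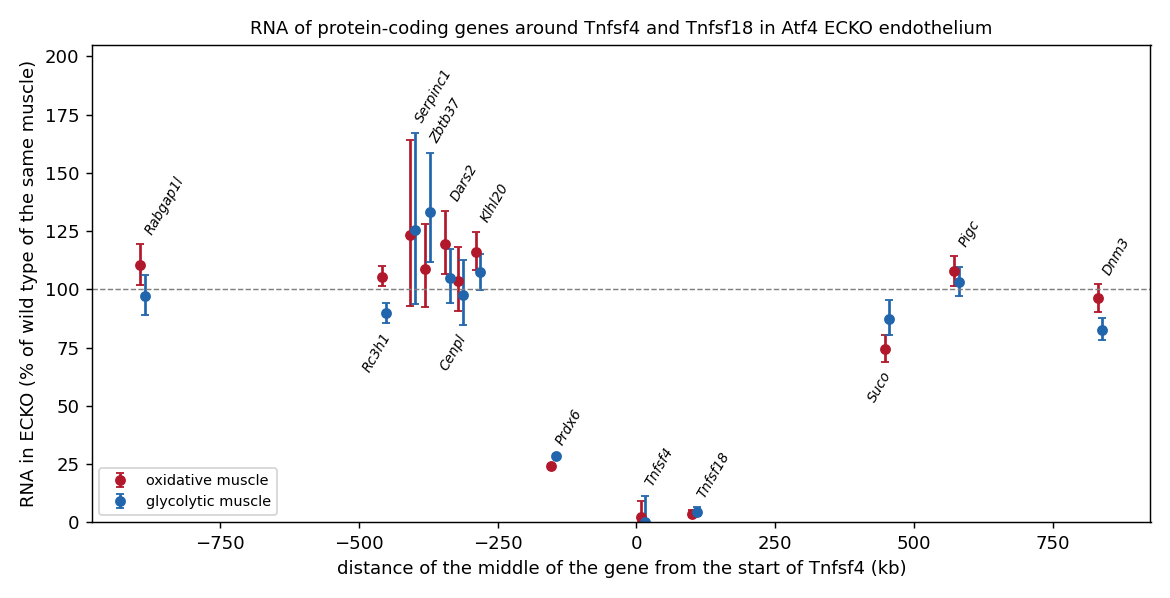
RNA in ECKO as a percentage of wild type of the same muscle, from pooled counts with exact 95% counting intervals, against the distance of each gene's middle from the start of Tnfsf4, for the 11 tested neighbours and the 2 ligands. Prdx6, Tnfsf4 and Tnfsf18 lie between 0% and 28.4%, and the other genes between 74.3% and 133%.

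Genes whose log2 CPM was most like Tnfsf4 over the 20 libraries were Srxn1, Atf4, Mthfd2, Aars and Psat1 (Pearson r = 0.984, 0.977, 0.972, 0.968 and 0.968, among 13970 genes). Srxn1 encodes sulfiredoxin, Mthfd2 a mitochondrial folate enzyme, Aars the alanyl-tRNA synthetase and Psat1 an enzyme of serine synthesis. Those most like Tnfsf18 were Cp, Prdx6, Gstp1, Atf4 and Cyp26b1 (r = 0.969, 0.956, 0.953, 0.951 and 0.948), where Cp encodes ceruloplasmin, Gstp1 a glutathione transferase and Cyp26b1 a retinoic acid hydroxylase. Tnfsf18 ranked 76th for Tnfsf4 (r = 0.915) and Tnfsf4 ranked 30th for Tnfsf18. The 20 libraries fall into wild type and ECKO, and r mainly describes that split. The wild type libraries in turn fall into 2 muscles, between which Tnfsf4 and the 5 genes most like it were all higher in oxidative muscle on average, so r within wild type also holds a group difference. Within the 10 wild type libraries r was 0.72 to 0.81 for the 5 genes of Tnfsf4, -0.24 to 0.47 for those of Tnfsf18, and -0.10 between Tnfsf4 and Tnfsf18. Gstp1 has a near-identical copy, Gstp2, and reads may be split between them.

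The receptors of the 5 ligands were not used to choose them and were tested. Tnfrsf12a, which encodes Fn14, the receptor of TWEAK, went in opposite directions in the 2 muscles. It was 144 ± 6.55 CPM in oxidative wild type, 57.9 ± 3.64 in glycolytic wild type, 84.7 ± 16.2 in oxidative ECKO and 131 ± 1.52 in glycolytic ECKO (SD, n = 5). It fell in oxidative ECKO (log2 fold change -0.77 ± 0.08, SE; edgeR adjusted p = 4.37e-08) and rose in glycolytic ECKO (1.17 ± 0.08; adjusted p = 3.73e-11). No ECKO library overlapped wild type in either muscle, and the interaction passed (-1.94 ± 0.12; adjusted p = 2.62e-12). Its ligand Tnfsf12 changed by at most 0.17 between genotypes, as given above. RNA of other cell types differed here too. Median sums of 7 fibroblast, 11 myofibre and 8 mural markers were 55.5, 54.6 and 735 CPM in glycolytic wild type. In glycolytic ECKO they were 122, 128 and 1499 CPM. In oxidative muscle they were 157, 124 and 551 CPM in wild type and 218, 215 and 719 CPM in ECKO. The part of such RNA in the receptor levels was not tested.

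Of the 4 TRAIL receptor genes, Tnfrsf10b and Tnfrsf23 had a genotype effect that differed between the muscles. Tnfrsf10b, the mouse death receptor for TRAIL, fell in oxidative ECKO from 51.2 ± 3.13 to 41.2 ± 1.93 CPM (log2 fold change -0.32 ± 0.06; adjusted p = 9.64e-05), and stood at 36.5 ± 1.57 in wild type and 38.7 ± 2.52 CPM in ECKO of glycolytic muscle (0.08 ± 0.06; adjusted p = 0.31), with an interaction of -0.40 ± 0.08 (adjusted p = 0.000674). The decoy receptor gene Tnfrsf23 fell in oxidative ECKO (-0.62 ± 0.08; adjusted p = 1.07e-06) and rose in glycolytic ECKO (0.43 ± 0.08; adjusted p = 0.00021), with a passing interaction (-1.05 ± 0.12; adjusted p = 1.21e-07). The decoy Tnfrsf22 rose in glycolytic ECKO (0.29 ± 0.07; adjusted p = 0.00142) and was 0.12 ± 0.07 in oxidative muscle (adjusted p = 0.196), and its interaction did not pass (-0.17 ± 0.09; adjusted p = 0.191). Over alternative settings its oxidative value ran from -0.018 to 0.209 and passed under 2 of 29, and its interaction passed under 1 of 28. Tnfrsf22, Tnfrsf23 and Tnfrsf26 form a cluster of similar genes on chromosome 7 that overlaps an antisense gene, so counts may be shared among them. Tnfrsf26 moved like Tnfrsf23, with -0.36 ± 0.08 in oxidative and 0.99 ± 0.08 in glycolytic ECKO (adjusted p = 0.000683 and 2.28e-10). Tnfrsf11b, a secreted decoy known as osteoprotegerin, had means of 0.540 to 0.881 CPM and passed in no comparison.

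Receptors of the T-cell co-stimulators were barely detected. Tnfrsf4, the receptor of the Tnfsf4 product, had group means of 0.191 to 0.378 CPM and was not tested. Tnfrsf18, the receptor of the Tnfsf18 product, was 0.491 ± 0.0741 CPM in oxidative wild type, 0.963 ± 0.412 in glycolytic wild type, and 0.994 ± 0.316 and 1.53 ± 0.463 CPM in the ECKO of these muscles. It was lower in oxidative than glycolytic wild type (-0.995 ± 0.354; adjusted p = 0.0325) and higher in oxidative ECKO than wild type (1.04 ± 0.36; adjusted p = 0.0268). Both calls were unstable: the first was lost under 9 of 28 alternatives, among them leaving out any of 6 single libraries, and the second under 7 of 28, among them 5 single libraries. Tnfrsf25, the receptor of TL1A, had means of 1.63 to 1.70 CPM in the 4 groups.

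**Figure D3:**
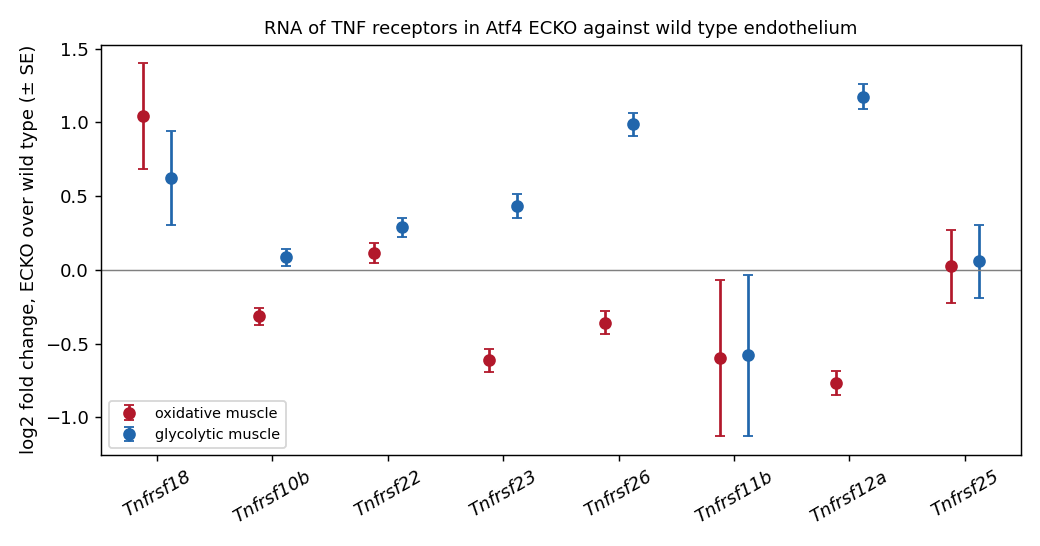
Log2 fold change of ECKO over wild type in oxidative and glycolytic muscle for the 7 tested receptors of the 5 ligands and for Tnfrsf26, whose gene lies beside Tnfrsf22 and Tnfrsf23; whiskers are ± SE of the edgeR fit. Tnfrsf12a, Tnfrsf23 and Tnfrsf26 lie below 0 in oxidative and above 0 in glycolytic muscle.

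Of all 28 receptor genes of the family 22 were tested. Over all genes tested, 14.6% were higher and 17.4% lower in oxidative ECKO, and 13.9% and 15.1% in glycolytic ECKO. Between the muscles these shares were 16.4% and 15.9% in wild type and 8.31% and 10.1% in ECKO. In oxidative muscle 3 rose and 6 fell in ECKO, with a median log2 fold change over the 22 of -0.133 beside 0.016 over all genes. In glycolytic muscle 8 rose and 3 fell (0.148 beside 0.004). Between the muscles 7 were higher and 6 lower in oxidative wild type (0.055 beside -0.003), and 1 was higher and 7 lower in oxidative ECKO (-0.140 beside -0.002). Without the 3 oxidative ECKO libraries with Y-linked RNA, 5 passed in that last comparison in place of 8. Fas, a death receptor, rose in both muscles (0.74 ± 0.06, adjusted p = 4.09e-10, and 0.42 ± 0.06, adjusted p = 9.1e-06). Tnfrsf1b, a TNF receptor, fell in both (-0.18 ± 0.05, adjusted p = 0.0079, and -0.24 ± 0.05, adjusted p = 0.000859), though the oxidative call was lost without the 3 ECKO libraries with Y-linked RNA. Tnfrsf1a, the other TNF receptor, fell in glycolytic muscle (-0.22 ± 0.04; adjusted p = 8.21e-05) and was -0.01 ± 0.04 in oxidative muscle. Tnfrsf8, which encodes CD30, rose in oxidative muscle (1.91 ± 0.28; adjusted p = 4.8e-06) and was -0.05 ± 0.27 in glycolytic muscle. Eda2r, the X-linked receptor of an ectodysplasin form, fell in oxidative (-0.50 ± 0.06; adjusted p = 6.27e-07) and rose in glycolytic ECKO (0.61 ± 0.07; adjusted p = 7.25e-08). Sex differed with genotype for this X-linked gene, and its part was not tested.

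Of the 13 other ligand genes 5 were tested. In oxidative ECKO Tnf and Tnfsf9 fell, Ltb rose, and Eda and Tnfsf13 did not pass. Tnf, the founding cytokine of the family, fell from 19.2 ± 2.95 to 7.56 ± 0.556 CPM in oxidative muscle (-1.34 ± 0.16; adjusted p = 2.22e-07) and from 8.80 ± 2.44 to 4.26 ± 0.939 CPM in glycolytic muscle (-1.08 ± 0.18; adjusted p = 5.06e-05). Tnfsf9, which encodes the ligand of the co-stimulatory receptor 4-1BB, fell from 12.6 ± 2.85 to 3.28 ± 1.06 CPM in oxidative muscle (-1.97 ± 0.21; adjusted p = 3.84e-08) and was 2.29 ± 0.481 and 1.71 ± 0.624 CPM in wild type and ECKO of glycolytic muscle (-0.42 ± 0.26; adjusted p = 0.246). Both genes were higher in oxidative than glycolytic wild type, by 1.12 ± 0.16 and 2.43 ± 0.22 (adjusted p = 2.49e-06 and 1.15e-09), where myeloid marker RNA was also highest; its part was not tested. Ltb, a lymphotoxin gene, rose in oxidative ECKO from 0.509 ± 0.269 to 1.32 ± 0.588 CPM (1.26 ± 0.40; adjusted p = 0.0164), and this was lost without oxidative ECKO library 1 and without the 3 libraries with Y-linked RNA. In glycolytic ECKO Tnfsf13, which encodes APRIL, rose (0.91 ± 0.28; adjusted p = 0.0173), a call lost without glycolytic ECKO library 1 or wild type library 5. Tnfsf13 shares its locus with Tnfsf12 and Tnfsfm13.

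In the list of 32 TNF signalling genes, all tested, 10 rose and 4 fell in oxidative ECKO and 14 rose and 3 fell in glycolytic ECKO (median log2 fold changes 0.068 and 0.102 beside 0.016 and 0.004 over all genes). Over all genes tested, 14.6% rose and 17.4% fell in oxidative ECKO, and 13.9% and 15.1% in glycolytic ECKO. Nfkb2, an NF-kB subunit gene of the non-canonical arm, rose in both muscles (0.51 ± 0.07, adjusted p = 6.92e-07, and 0.57 ± 0.07, adjusted p = 1.77e-07). Ripk3, a kinase of necroptosis, fell in both (-0.69 ± 0.06, adjusted p = 1.83e-10, and -0.46 ± 0.06, adjusted p = 7.99e-07). Traf2, an adaptor of many of these receptors, and Tnfaip3, the NF-kB inhibitor A20, rose in glycolytic ECKO (0.48 ± 0.06 and 0.65 ± 0.09; adjusted p = 5.71e-07 and 3.33e-06). They were -0.03 ± 0.06 and -0.08 ± 0.09 in oxidative ECKO. Ikbkg, the X-linked regulatory subunit of the IkB kinase, fell in oxidative ECKO (-1.02 ± 0.08; adjusted p = 3.86e-10), and its span overlaps G6pdx on the other strand.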

How the data were processed

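RNA of sorted endothelial cells was measured in 20 libraries (stranded poly(A) protocol, single-end reads, per the labels' protocols). The authors deposited, per the file headers, estimated counts and TPM per transcript, with length and effective length. The submitters' processing notes name kallisto and DESeq2 without versions, and the human build GRCh38.p13; the identifiers are those of mouse transcripts, and how strand was handled is not stated in the sources used here. Of 129439 transcripts 128643 were matched to GENCODE M21 (GRCm38), at most 0.221% of a library's counts were unmatched, and estimated counts were summed per gene and rounded. edgeR 4.0.16 (R 4.3.3; quasi-likelihood test, TMM, filterByExpr with a minimum count of 10) fitted all 20 libraries as 4 group means, with Benjamini-Hochberg adjustment over 13971 genes and a call at an adjusted p under 0.05. The SE is the log2 fold change over the square root of F. DESeq2 1.42.0 and limma 3.58.1 were alternatives; the fits were tested on simulated data. TPM was summed per gene and used to compare levels between genes, and for Tnfsf4 also between the wild type muscles. Count ratios have exact (Clopper-Pearson) 95% intervals from SciPy 1.17.1.

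The ligand genes, the gene lists and the rule for named genes were chosen with earlier results of these data known. By that rule the text could name the 5 ligands, their 8 receptors, up to 4 genes with the smallest adjusted p per other list and comparison, the 5 genes most like Tnfsf4 and Tnfsf18 in log2 CPM (prior count 2), protein-coding neighbours within 1 Mb, markers, Atf4 and Atf3; it takes part of these, picked after their values were seen. Counts of replicate libraries differed by more than sampling noise in all 40 within-group pairs (chi-square per gene at least 2.64). The replicate number was no block in the main model.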

Additional observations from a re-analysis of the deposited data

Results flagged for a closer look

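Single libraries stood apart from the other 4 of their group in 4 of 55 groups of 5 checked with Dixon's criterion over the 5 ligands, their 8 receptors and Prdx6. For normally distributed values chance gives about 1 in 20. Several of these genes had counts near 0, where that rate does not hold. Oxidative wild type library 3 had the highest Tnfsf4 (1.61 CPM, nearest 1.10) and the highest Tnfsf12 (16.6 CPM, nearest 13.8). Oxidative ECKO library 3 held all Tnfsf4 counts of its group (0.121 CPM, the others 0), a case that the criterion always flags. Glycolytic ECKO library 5 held 0.951 CPM of Tnfrsf4, nearest 0.235.

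By an edgeR interaction test (adjusted over 13971 genes) the genotype effect differed between the muscles for 19 of 39 named genes outside the 5 ligands. Over all genes tested 22.6% passed. Some of the 39 were named for a small adjusted p, in the interaction or another comparison, so the 2 shares cannot be compared. The value given is the log2 change in oxidative minus that in glycolytic muscle. Among receptors of the 5 ligands it was -1.94 for Tnfrsf12a (adjusted p = 2.62e-12), -1.05 for Tnfrsf23 (1.21e-07) and -0.40 for Tnfrsf10b (0.000674). Among other receptors it was -1.34 for Tnfrsf26 (7.28e-10), -1.11 for Eda2r (8.96e-10), 1.96 for Tnfrsf8 (0.000422), 0.33 for Fas (0.0074) and 0.20 for Tnfrsf1a (0.00642). The ligand genes Ltb and Tnfsf9 gave 2.29 (0.0049) and -1.56 (0.00121). Among signalling genes it was -0.86 for Ikbkg (5.34e-06), -0.73 for Tnfaip3 (8.17e-05), -0.51 for Traf2 (5e-05), -0.48 for Cflar (8.97e-05), -0.31 for Nfkbib (0.00508), 0.33 for Tnip1 (0.0369) and -0.23 for Ripk3 (0.0352). For the neighbours Prdx6 and Rc3h1 it was -0.23 (0.0117) and 0.26 (0.0291). These calls were lost under 14 of 28 alternatives for Ripk3, 13 for Tnip1, 11 for Rc3h1, 2 for Prdx6 and 1 for Nfkbib, and for Ltb and Fas without the 3 oxidative ECKO libraries with Y-linked RNA. For Tnfsf10 the difference was 0.59 and was not tested, since the gene was chosen on its levels: all 5 oxidative ECKO libraries lay above the oxidative wild type mean, and all 5 glycolytic ECKO libraries below the glycolytic one. Oxidative ECKO library 1 did so only barely, with 59.2 CPM beside a mean of 58.6 CPM, and lay within the wild type range.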

How the results depend on the processing

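Each result was recomputed with DESeq2 or limma-voom, RLE factors, an effective-length offset, no filter on low counts, the compared groups only, a replicate block, and with libraries left out singly or as the oxidative ECKO sets that carry or lack Y-linked RNA. Counts of called genes or receptors stayed within 1.5 times in 287 recomputations and not in 1, the number of receptors called between the ECKO muscles, 5 without the 3 libraries with Y-linked RNA against 8. The log2 change of Tnfsf10 between genotypes in oxidative muscle was 0.482 without those 3 libraries and 0.153 without the other 2, against 0.293. With the same libraries left out, it was 0.332 and 0.011 between the ECKO muscles, against 0.142, and 0.786 and 0.47 for the interaction, against 0.594; the cause was not tested. Leaving out 1 library in turn, Tnfsf10 ranged from 0.232 to 0.357 in oxidative and from -0.327 to -0.288 in glycolytic muscle, Tnfsf18 from -4.967 to -4.498 and from -5.114 to -4.257, and Tnfsf4 in oxidative ECKO from 0 to 2.70% of wild type, 0 without library 3. For 39 named genes that are not among the 5 ligands, 64 of 97 calls held under all alternatives, 33 were lost under at least 1, and 17 of 98 other pairs of gene and comparison were called under at least 1. Whether equal replicate numbers pair the libraries is not stated. Over 30 pairs the correlation of deviations ran from -0.066 to 0.1, and in 9 of the 30 a library correlated best with its own number. Such weak correlations cannot exclude pairing. With the replicate block 4388, 2442, 4332, 3969 and 3064 genes were called for the muscles in wild type and in ECKO, genotype in oxidative and in glycolytic muscle, and the interaction, and the Tnfrsf18 call between the wild type muscles was lost (adjusted p = 0.0526), as were those of Eda2r between the ECKO muscles and of Ripk3 for the interaction. Fitted folds of Tnfsf4 against ECKO are not given because those groups hold at most 2 counts, and Tnfsf15 failed the count filter. Depth limits Tnfsf4, Tnfsf15, Tnfrsf4 and Tnfrsf18.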
